A study of Mus musculus with 14 samples.

Results

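The H3K4me3 regions of 6 genes that mark medium spiny neurons of the striatum, Ppp1r1b, Drd1a, Gpr6, Adora2a, Rgs9 and Tac1, were followed in mouse cerebral cortex after developmental nicotine exposure. The members were taken as every row with values in both deposited tables whose gene symbol was one of these 6 names. Each gene had 1 such region, so 6 of 14881 regions and 6 of 10543 named genes were members. H3K4me3, trimethylation of histone H3 at lysine 4, was measured by chromatin immunoprecipitation and sequencing (ChIP-seq) in C57BL/6J mice aged 3 months. The groups were postnatal-only nicotine (4 libraries) with its postnatal-only saccharin control (4 libraries), and pre- and postnatal nicotine (3 libraries) with its pre- and postnatal saccharin control (3 libraries). All groups shared the strain, the age, the tissue and the antibody, and per the labels' protocols solution was withdrawn from the offspring at day 21 and the mice then rested to day 90. One treatment text, which starts at conception, serves all samples, so the postnatal-only course is known only through the group names. Nothing in the labels states that replicates came from separate animals, and p-values therefore measure the spread between these samples, which may be technical.

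Medium spiny neurons are the GABAergic projection neurons of the striatum and receive dense dopamine input. They form a direct pathway, whose cells carry the dopamine receptor encoded by Drd1a and make substance P from Tac1, and an indirect pathway, whose cells carry the adenosine receptor encoded by Adora2a and the orphan receptor Gpr6. Ppp1r1b, which encodes DARPP-32, and Rgs9 serve both pathways: DARPP-32 is phosphorylated by protein kinase A downstream of the dopamine receptor and then inhibits protein phosphatase 1, and Rgs9 speeds the shut-off of G proteins. In cortex, Drd1a and Ppp1r1b are known from deep-layer neurons. H3K4me3 lies mainly at active or poised promoters, so the signal describes promoters and not the amount of RNA.

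The RefSeq promoter table (build GRCm38.p6, 250 bases before to 50 after each start) matched 4 of the 6 members, Drd1a under its current symbol Drd1, Gpr6, Rgs9 and Tac1. Their sequences are shown because the mark was measured at promoters and because the 4 include the member of lowest signal. They are written 5′ to 3′ on the gene's strand, and capitals mark the motifs searched on both strands: the full cAMP response element TGACGTCA, its core TGACG, which also lies within every full element, the Sp1-type box GGGCGG, the E-box CACGTG, the core promoter letters TATAAA and the CCAAT box. The first Drd1 promoter lies at chr13:54055609-54055908 and the second at chr13:54054731-54055030, the Gpr6 promoter at chr10:41072241-41072540 and the Rgs9 promoter at chr11:109298132-109298431, all on the minus strand, and the Tac1 promoter at chr6:7554811-7555110 on the plus strand.
Drd1 first promoter: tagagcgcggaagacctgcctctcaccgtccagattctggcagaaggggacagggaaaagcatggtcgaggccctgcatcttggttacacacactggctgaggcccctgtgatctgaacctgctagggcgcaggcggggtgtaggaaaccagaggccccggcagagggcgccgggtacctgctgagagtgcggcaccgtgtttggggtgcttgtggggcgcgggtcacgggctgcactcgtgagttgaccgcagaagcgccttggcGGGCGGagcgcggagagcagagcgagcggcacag
Drd1 second promoter: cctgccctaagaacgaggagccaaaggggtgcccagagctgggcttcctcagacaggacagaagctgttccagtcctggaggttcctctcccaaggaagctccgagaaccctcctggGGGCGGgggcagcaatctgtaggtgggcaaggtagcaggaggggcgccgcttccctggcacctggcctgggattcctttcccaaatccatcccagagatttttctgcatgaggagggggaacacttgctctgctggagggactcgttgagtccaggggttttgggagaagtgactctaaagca
Gpr6: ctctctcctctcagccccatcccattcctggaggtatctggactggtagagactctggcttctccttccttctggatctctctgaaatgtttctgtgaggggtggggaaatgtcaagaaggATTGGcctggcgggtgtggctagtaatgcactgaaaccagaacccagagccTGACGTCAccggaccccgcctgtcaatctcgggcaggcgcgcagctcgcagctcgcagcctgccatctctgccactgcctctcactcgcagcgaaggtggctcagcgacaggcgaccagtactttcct
Rgs9: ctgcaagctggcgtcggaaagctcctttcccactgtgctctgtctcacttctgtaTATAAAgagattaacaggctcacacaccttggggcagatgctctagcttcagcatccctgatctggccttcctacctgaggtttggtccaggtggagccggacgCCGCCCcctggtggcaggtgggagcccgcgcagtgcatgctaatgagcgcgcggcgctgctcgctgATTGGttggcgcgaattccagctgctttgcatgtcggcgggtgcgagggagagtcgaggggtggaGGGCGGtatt
Tac1: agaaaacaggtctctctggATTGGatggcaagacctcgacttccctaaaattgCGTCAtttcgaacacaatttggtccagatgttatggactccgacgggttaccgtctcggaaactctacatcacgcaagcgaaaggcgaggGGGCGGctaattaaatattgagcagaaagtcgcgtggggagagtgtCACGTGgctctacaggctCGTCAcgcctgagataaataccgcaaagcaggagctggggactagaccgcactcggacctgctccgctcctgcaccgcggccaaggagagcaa

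The only full cAMP response element in these windows was in Gpr6, beginning 78 bases before the start, and 1.79% of 32851 promoters of the same length held one. Tac1 held 2 TGACG cores, beginning 197 and 43 bases before the start, and 20.8% of all promoters held that core. Tac1 was also the only one with the E-box, found in 7.15% of promoters, and Rgs9 the only one with the TATAAA letters, which began 195 bases before the start and stand in 13.6% of promoters. GGGCGG boxes were found in both Drd1 promoters, in Rgs9 (2 copies) and in Tac1, against 35.7% of all promoters, and CCAAT boxes in Gpr6, Rgs9 and Tac1, against 37.4%. These matches describe letters in a window and say nothing of whether a factor binds.

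CpG content differed widely among the 4 genes. The observed over expected CpG ratio was 1.01 in Tac1, 0.74 in the first Drd1 promoter, 0.70 in Rgs9, 0.51 in Gpr6 and 0.23 in the second Drd1 promoter, against a median of 0.38 over all promoters. Tac1 held 22 CpG dinucleotides and Gpr6 held 13. Among 8253 protein-coding genes that had both a promoter and a region, with the highest ratio of a gene's promoters taken, Tac1 was at percentile 86.6, Drd1a at 40.3, Rgs9 at 34.0 and Gpr6 at 12.9. The median ratio was 0.79 in those genes and 0.27 in 9239 protein-coding genes without a region that had values. Among other medium spiny neuron genes with a promoter it was 0.78 in 12 with such a region and 0.80 in 13 without. Among family relatives of the members it was 0.61 in 10 with such a region and 0.24 in 9 without. Over 8169 genes matched through the region's RefSeq transcript, the ratio and the signal per kb correlated with Spearman's rho 0.40 in the postnatal saccharin means. In the pre- and postnatal ones rho was 0.39. This is a description across genes that share libraries and base composition. The promoter of highest ratio and the region of highest signal per kb were taken separately for each gene. Tac1, with the highest CpG ratio of the 4, had the lowest signal per kb. Promoters were matched to regions by gene name or transcript and not by position, since the regions are given in build mm9 and the promoters in GRCm38.p6.

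The libraries held a summed signal of 1445810 to 2489860, in reads per region that the authors had already adjusted with edgeR. Raw depth is unknown, so counting intervals are not given. Reading adjusted values as counts, the variance between postnatal libraries 1 and 2 of one treatment, and between 3 and 4, was 1.00 to 1.07 times counting noise, which is less than the 2.32 to 2.70 times of other postnatal pairs of one treatment. These pairs were therefore averaged into single samples, giving n = 2 nicotine against 2 saccharin samples after postnatal-only exposure and n = 3 against 3 after pre- and postnatal exposure. The samples also stood apart in the share of signal held by the 15 strongest regions. After postnatal-only exposure it was 25.2% in nicotine libraries 1 and 2, 10.04% in nicotine libraries 3 and 4, 8.47% in saccharin libraries 1 and 2 and 18.7% in saccharin libraries 3 and 4, so that each treatment had 1 sample of high and 1 of low share. After pre- and postnatal exposure it was 19.1, 49.7 and 41.9% in the nicotine libraries and 39.9, 28.8 and 33.1% in the saccharin libraries. The 15 regions were chosen by a mean above 3000 in the postnatal-only libraries, and the same regions were used for both exposures.

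The tissue label was checked against marker lists. Of 11 markers of cortical projection neurons, 9 had a region, with 12.4 to 153 signal per kb in postnatal saccharin samples and a median of 54.0. They included Slc17a7, the vesicular glutamate transporter of cortical excitatory neurons, at 42.6 per kb, and Emx1, a cortical regulator, at 60.6 per kb. Of the markers of other tissues, 0 of 2 liver genes had a region, 1 of 3 muscle genes (Myod1, 10.2 per kb) and 1 of 4 choroid plexus genes (Kl, 34.9 per kb). All 3 thalamic markers had one, at 36.1 to 43.0 per kb. A region here means a row with values, so a gene without one may still stand among the 4322 rows without values. A gene without a region was not analysed here. This holds for 17 of 33 other medium spiny neuron genes, Penk, Pdyn, Adcy5 and Pde10a among them. In a tissue sample, fewer cells of a type and less of the mark per cell cannot be told apart.

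Neither exposure moved any of the 6 members past the threshold. After postnatal-only exposure, 4 members had a positive and 2 a negative log2 difference, nicotine minus saccharin (median 0.03, against -0.0036 over all 14873 regions tested). After pre- and postnatal exposure, 1 was positive and 5 were negative (median -0.08, against 0.0027 over 14879 regions). The test was limma with trend on log2(value + 1), two-sided, with Benjamini-Hochberg adjusted p under 0.05 over all regions. Across the genome it called 0 regions in each exposure (0% called), while an unadjusted p under 0.05 was reached by 1.89% of regions after postnatal-only and 3.59% after pre- and postnatal exposure, and by 0 of 6 members in either. The nicotine and saccharin samples overlapped at all 6 members in both exposures, whereas they did not overlap in 29.1% and 8.95% of all regions. The lowest adjusted p among all regions was 1.00 after postnatal-only and 0.987 after pre- and postnatal exposure.

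**Figure D1:**
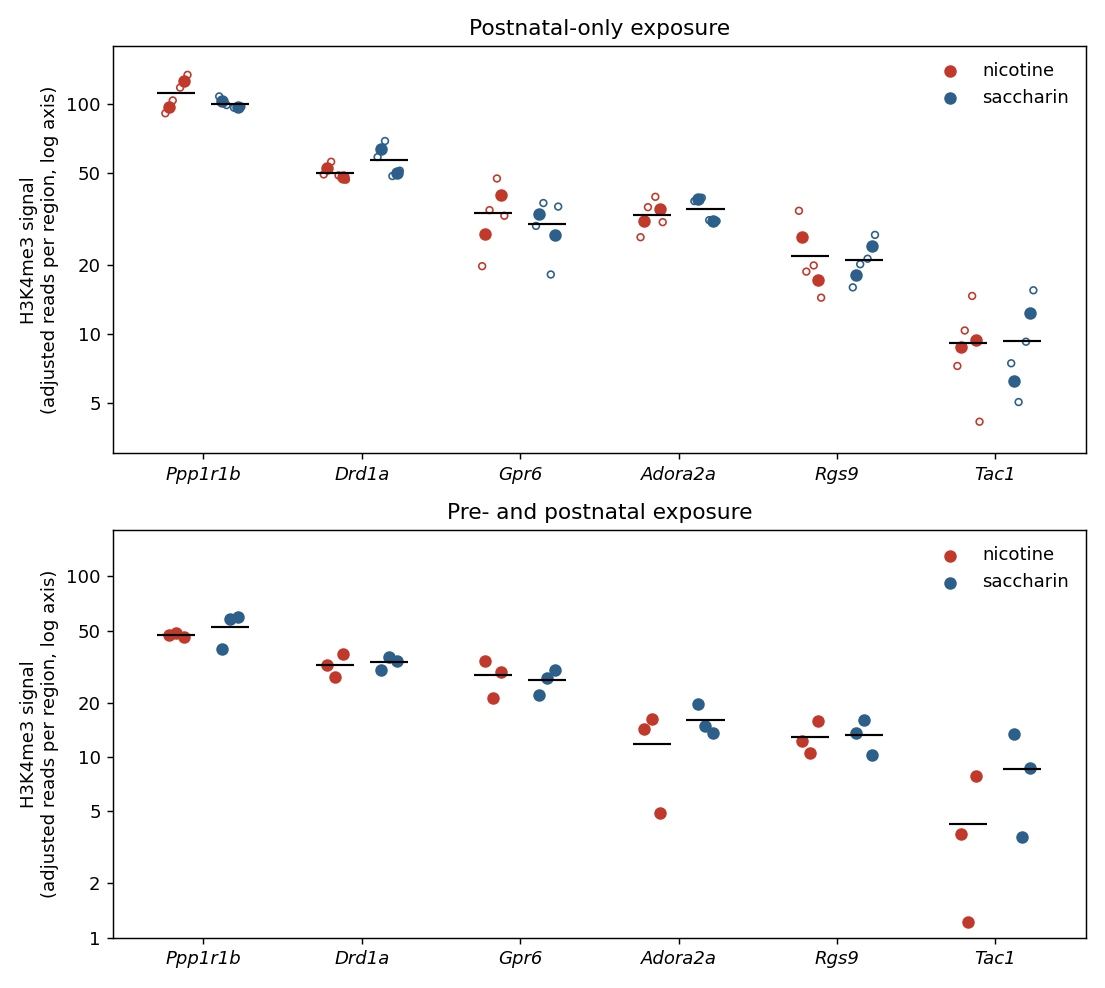
H3K4me3 signal (adjusted reads per region, log axis) of the 6 members after postnatal-only exposure (top) and pre- and postnatal exposure (bottom), nicotine in red and saccharin in blue. Filled points are samples, open points the single libraries that were averaged, and black lines are means of the samples. Signal runs from about 1.22 in one nicotine sample at Tac1 to 126.5 in one at Ppp1r1b, and the groups overlap at every member.

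Ppp1r1b, the DARPP-32 gene, carried the strongest signal of the 6. Its region lies at chr11:98209282-98210921 (mm9, transcript NM_144828, 1639 bp). After postnatal-only exposure its signal was 97.8 and 126.5 in nicotine samples, against 103.9 and 97.3 in saccharin samples. One nicotine sample was the highest of the 4, and the other lay between the saccharin samples. The means were 112.2 ± 20.3 in nicotine and 100.6 ± 4.66 in saccharin samples (SD, n = 2 each), giving a log2 difference of 0.14 ± 0.16 (SE) with a 95% interval of -0.19 to 0.48 (limma adjusted p = 1.00). In the pre- and postnatal table the values were 47.4, 48.8 and 46.1 in nicotine samples, against 39.6, 58.3 and 59.6 in saccharin samples. The nicotine samples lay close together within the saccharin range. The log2 difference was -0.12 ± 0.25 (95% interval -0.64 to 0.40, limma adjusted p = 0.987).

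The 3 receptors carried intermediate signal. Drd1a, encoding the dopamine receptor that raises cAMP, had its region at chr13:54149999-54151566 (NM_010076, 1567 bp). After postnatal-only exposure it measured 52.9 and 48.0 in nicotine samples, against 64.1 and 50.0 in saccharin samples. The highest of the 4 values was a saccharin sample and the lowest a nicotine sample, and between them a nicotine sample stood above a saccharin sample. The log2 difference was -0.17 ± 0.23 (95% interval -0.65 to 0.32). With pre- and postnatal exposure it measured 32.2, 27.8 and 37.3 in nicotine samples, against 30.2, 35.8 and 34.0 in saccharin samples, and the nicotine samples held both the lowest and the highest value. The log2 difference there was -0.04 ± 0.30 (95% interval -0.66 to 0.58).

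Adora2a, encoding the adenosine receptor of the indirect pathway, had its region at chr10:74779398-74780627 (NM_009630, 1229 bp). After postnatal-only exposure the signal was 31.0 and 35.1 in nicotine samples, against 38.5 and 31.1 in saccharin samples, so that the nicotine samples held the lowest value and the second highest. The log2 difference was -0.07 ± 0.30 (95% interval -0.69 to 0.56), and it was 0.021 after quantile normalization. With exposure before and after birth the signal was 14.3, 16.2 and 4.87 in nicotine samples, against 19.7, 14.8 and 13.6 in saccharin samples. Nicotine replicate 4 lay far below the other 5 libraries, which overlapped. The means were 11.8 ± 6.08 in nicotine and 16.0 ± 3.25 in saccharin samples (SD, n = 3 each), with a log2 difference of -0.54 ± 0.51 (95% interval -1.59 to 0.51, limma adjusted p = 0.987). Without that library the difference was -0.053.

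Gpr6, an orphan receptor that raises cAMP without an added ligand, had its region at chr10:40790394-40791840 (NM_199058, 1446 bp). After postnatal-only exposure its signal was 27.1 and 40.1 in nicotine samples, against 33.3 and 27.0 in saccharin samples. The samples alternated between the treatments from the lowest to the highest. The log2 difference was 0.13 ± 0.32 (95% interval -0.54 to 0.81). In the pre- and postnatal table it was 34.2, 21.2 and 29.4 in nicotine samples, against 21.9, 27.3 and 30.4 in saccharin samples, with both extremes in the nicotine group. Gpr6 was the only member with a positive difference there, 0.07 ± 0.34 (95% interval -0.63 to 0.78).

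Rgs9, the G protein regulator, had its region at chr11:109158834-109160022 (NM_011268, 1188 bp). After postnatal-only exposure the signal was 26.5 and 17.1 in nicotine samples, against 18.0 and 24.1 in saccharin samples. The nicotine samples enclosed the saccharin samples. The log2 difference was 0.03 ± 0.39 (95% interval -0.79 to 0.85). With exposure before and after birth the signal was 12.3, 10.5 and 15.7 in nicotine samples, against 13.5, 16.0 and 10.2 in saccharin samples. Here the saccharin samples enclosed the nicotine samples, with a log2 difference of -0.04 ± 0.47 (95% interval -1.01 to 0.93) that was 0.15 after quantile normalization.

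Tac1, the precursor of substance P and neurokinin A, had the weakest and narrowest region, at chr6:7504721-7505535 (NM_009311, 814 bp). After postnatal-only exposure it measured 8.77 and 9.36 in nicotine samples, against 6.22 and 12.3 in saccharin samples. The saccharin samples enclosed the nicotine samples. The log2 difference was 0.04 ± 0.54 (95% interval -1.11 to 1.18), although the mean signal was 9.06 in nicotine and 9.28 in saccharin samples, and it was -0.049 with the 8 libraries kept apart. With pre- and postnatal exposure it measured 3.76, 1.22 and 7.87 in nicotine samples, against 13.4, 3.63 and 8.68 in saccharin samples. Both groups reached below 4, and the highest 2 values were saccharin samples. The means were 4.28 ± 3.36 in nicotine and 8.58 ± 4.91 in saccharin samples (SD, n = 3 each), and the log2 difference was -0.93 ± 0.73 (95% interval -2.45 to 0.59, limma adjusted p = 0.987). It was -0.41 without nicotine replicate 3, the library at 1.22, and -1.41 without nicotine replicate 4, the extremes over the libraries left out. Under quantile normalization it was -0.35, and with the replicate block it was -1.86.

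**Figure D2:**
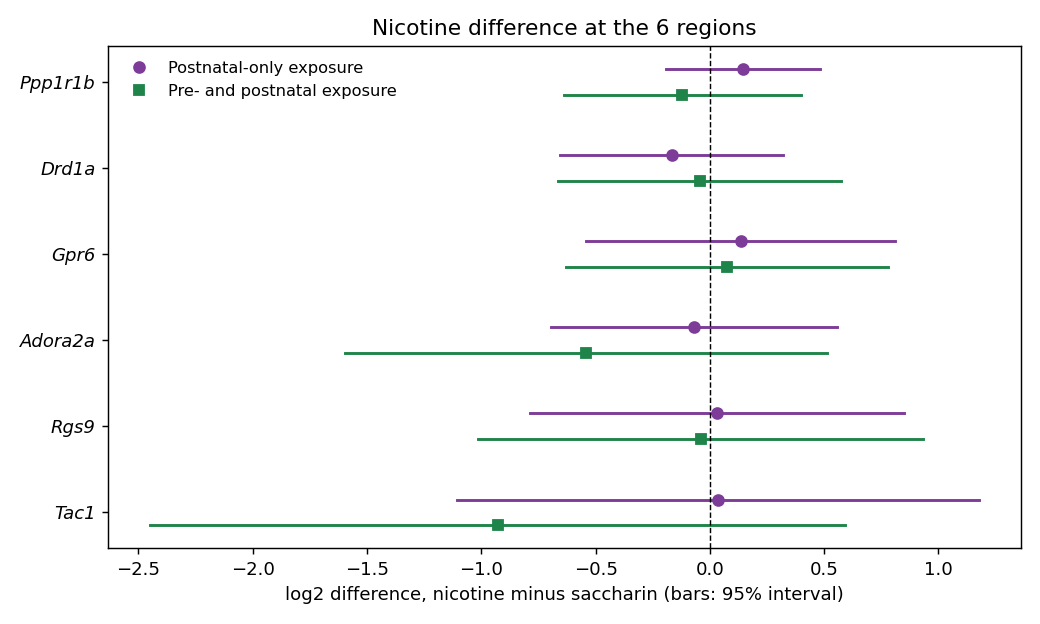
Log2 difference, nicotine minus saccharin, at each member after postnatal-only (circles) and pre- and postnatal exposure (squares), with 95% intervals from limma as bars. Every interval includes 0, and in each exposure the intervals are narrowest at Ppp1r1b and widest at Tac1.

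The intervals were narrowest at Ppp1r1b, whose signal was highest, and widest at Tac1, whose signal was lowest. The 95% interval reached 0.34 to either side of the estimate at Ppp1r1b and 1.14 at Tac1 after postnatal-only exposure, and 0.52 and 1.52 after pre- and postnatal exposure, against medians of 0.39 and 0.54 over all regions. Libraries that were averaged into 1 sample differed by 1.01- to 1.14-fold at Ppp1r1b and by 1.43- to 3.54-fold at Tac1. At Gpr6 they differed by up to 1.98-fold and at Rgs9 by up to 1.84-fold. Differences smaller than these intervals could not be told from 0 with these samples.

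The test of the nicotine difference between exposures passed at no member. The gap, postnatal-only minus pre- and postnatal, was widest at Tac1, at 0.96 ± 0.91 on the log2 scale (95% interval -0.82 to 2.75), followed by Adora2a at 0.47 ± 0.59 (-0.68 to 1.62) and Ppp1r1b at 0.27 ± 0.30. For Drd1a, Gpr6 and Rgs9 it lay between -0.12 and 0.07. A z test over the 2 fits gave an adjusted p of 1.00 at all 6 members. It called 0 of 14871 regions (0%), and 3.65% had an unadjusted p under 0.05.

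Per kb of region, the members stood in nearly the same order in both tables, which were adjusted separately and are read each on its own. In postnatal-only samples the signal per kb was 68.4 ± 12.4 in nicotine and 61.4 ± 2.84 in saccharin samples at Ppp1r1b (SD, n = 2 each). Drd1a followed with 32.2 in nicotine and 36.4 in saccharin samples, then Adora2a with 26.9 and 28.3, Gpr6 with 23.2 and 20.8, Rgs9 with 18.3 and 17.7, and Tac1 with 11.1 and 11.4, the nicotine mean before the saccharin mean in each. Ppp1r1b exceeded Drd1a in 4 of 4 samples without overlap, its lowest sample at 59.4 and the highest of Drd1a at 40.9. The ranges of all other neighbours in the order overlapped, and Gpr6 exceeded Rgs9 in only 2 of 4 samples. Within a sample Drd1a exceeded Adora2a, Adora2a exceeded Gpr6 and Rgs9 exceeded Tac1 in 4 of 4.

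In pre- and postnatal samples, Adora2a and Gpr6 changed places. The saccharin means per kb were 32.0 at Ppp1r1b, 21.3 at Drd1a, 18.3 at Gpr6, 13.0 at Adora2a, 11.2 at Rgs9 and 10.5 at Tac1, and the nicotine means were 28.9, 20.7, 19.5, 9.60, 10.8 and 5.26 in the same gene order. Ppp1r1b exceeded Drd1a in 6 of 6 samples, by a narrow margin between 24.2 and 23.8 across samples. The other neighbours overlapped, with the first above the second in 5 of 6 samples for Drd1a over Gpr6 and for Gpr6 over Adora2a, and in 4 of 6 for Adora2a over Rgs9 and for Rgs9 over Tac1.

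Against all regions, the members lay low except for Ppp1r1b. In postnatal saccharin means Ppp1r1b was at percentile 57.7 of signal per kb, Drd1a at 37.0, Adora2a at 26.9, Gpr6 at 16.6, Rgs9 at 12.3 and Tac1 at 5.34. The member median was 24.6 per kb, against 50.2 over all regions tested. In pre- and postnatal saccharin means the percentiles ran from 50.0 at Ppp1r1b to 4.16 at Tac1, with a member median of 15.7 against 32.0 per kb. Width followed the same order in part: the region of Ppp1r1b was at percentile 53.8 of region width, that of Adora2a at 24.2 and that of Tac1 at 2.36. For comparison within this tissue, in postnatal saccharin means Tac1 at 11.4 per kb stood near Myod1, a muscle regulator, at 10.2. It also stood near Cux2, an upper-layer cortical gene, at 12.4 per kb. Drd1a at 36.4 stood above Camk2a at 32.0 per kb. In pre- and postnatal saccharin means that order was reversed, with Drd1a at 21.3 below Camk2a at 29.3 per kb. There Tac1 at 10.5 stood near Myod1 at 12.1 but well below Cux2.

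**Figure D3:**
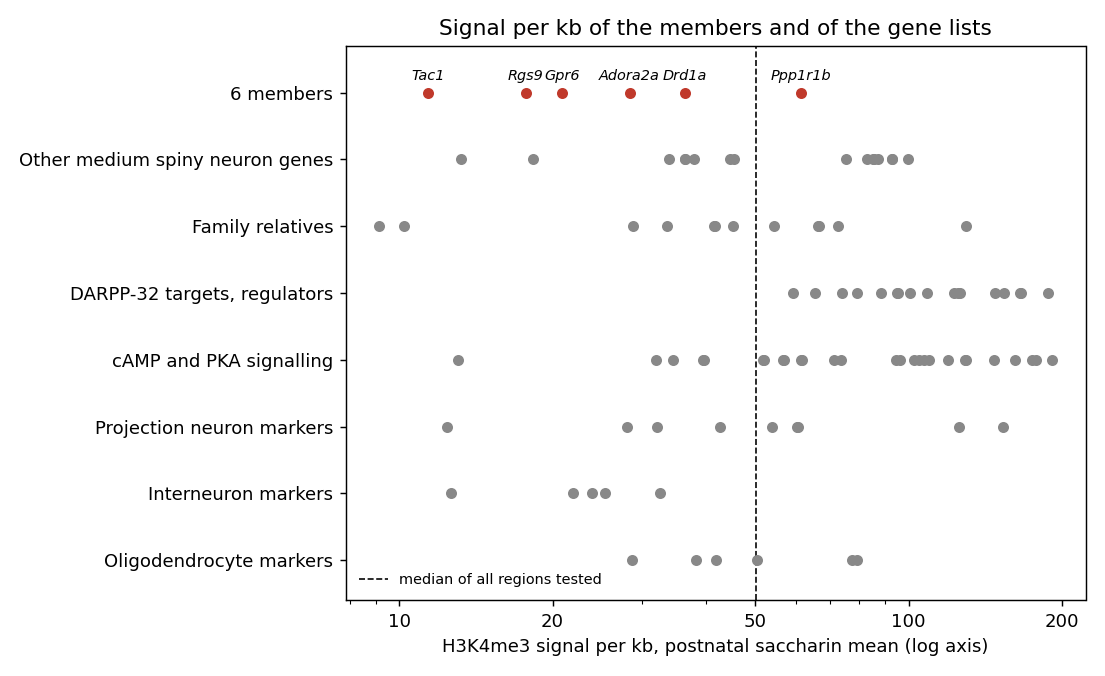
H3K4me3 signal per kb of region (mean of postnatal saccharin samples, log axis) for the 6 members in red and for the measured genes of 7 lists in grey. The dashed line is the median of all regions tested, 50.2 per kb; Ppp1r1b lies above it and the other 5 members below it.

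The members were also compared between the postnatal-only samples of high and low share in the 15 strongest regions. At Ppp1r1b, Gpr6 and Adora2a both samples of high share lay below both samples of low share, and at Rgs9 both lay above. These 4 of 6 members stand beside 46.5% of all 14873 regions, in which the same samples did not overlap in either direction, so the count is a description and nothing particular to the members is read from it. The log2 difference, high minus low share, was -0.42 ± 0.26 (SE) at Gpr6, -0.24 ± 0.25 at Adora2a, -0.23 ± 0.14 at Ppp1r1b and 0.50 ± 0.30 at Rgs9. By limma none passed the threshold, with adjusted p = 0.397 at Ppp1r1b and at Gpr6, 0.395 at Rgs9 and 0.687 at Adora2a. Within the samples of high share, nicotine minus saccharin was 0.0076 at Ppp1r1b, 0.0083 at Gpr6, -0.0061 at Adora2a, 0.13 at Rgs9, 0.08 at Drd1a and -0.45 at Tac1. Within those of low share it was 0.28, 0.26, -0.13, -0.07, -0.41 and 0.52 in the same gene order, each from 1 sample against 1. At Rgs9, Drd1a and Tac1 the sign thus differed between the classes. The part of this share in the nicotine comparison at single members was not tested further.

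**Figure D4:**
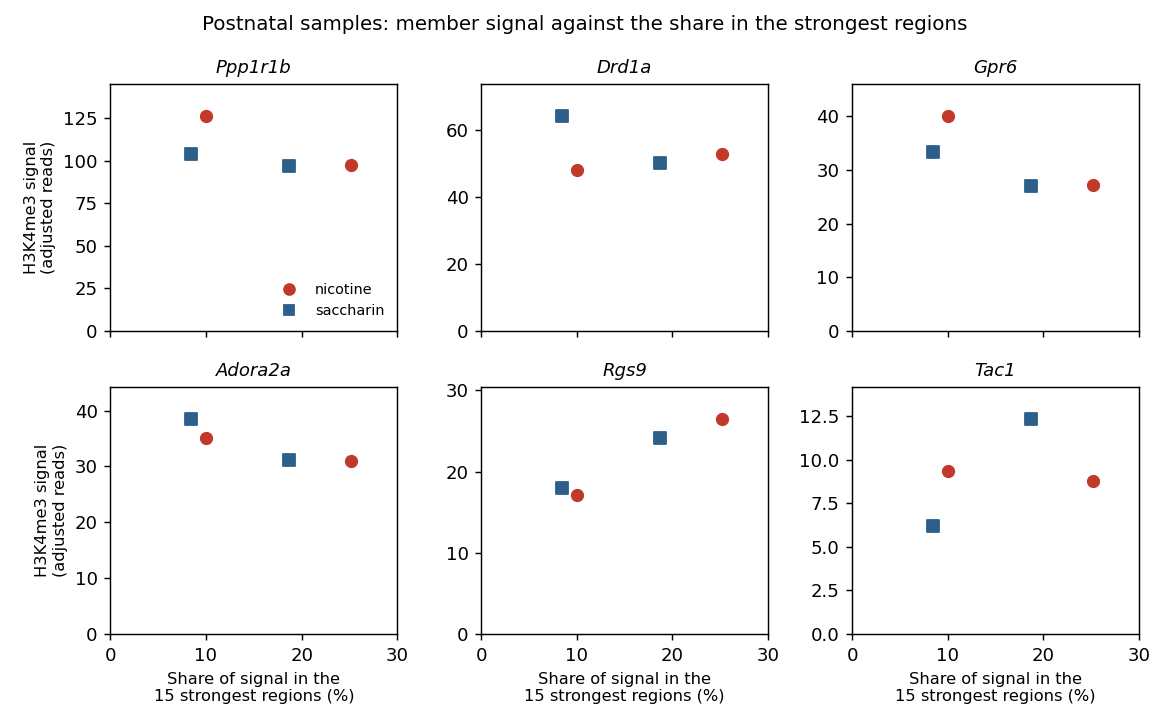
H3K4me3 signal (adjusted reads per region) of each member in the 4 postnatal-only samples against the percentage of signal in the 15 strongest regions, nicotine as circles and saccharin as squares. Ppp1r1b, Gpr6 and Adora2a are lower, and Rgs9 higher, in the samples at 18.7% and 25.2% than in those at 8.47% and 10.04%; over all regions 46.5% separated these samples in one direction or the other.

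The patterns of the members over samples varied. Over the 10 samples, with log2 values centred within each table, the pairwise Pearson r between members ran from -0.43 (Drd1a and Adora2a) to 0.58 (Ppp1r1b and Gpr6). These are descriptions over samples that share libraries and adjustment. The named regions whose pattern was most like a member's, among 11388 compared, were Spag4 (r = 0.946), Pam16 and Fbxo7 for Ppp1r1b, Ciz1 (0.934), Kif13a and C2cd2 for Drd1a, and Pnpla3 (0.989), Wsb2 and Tnfrsf1b for Adora2a. They were Tmem38b (0.975), Nckap5l and Ccng2 for Gpr6, Masp1 (0.941), Vamp8 and Zfp414 for Rgs9, and Nrg2 (0.948), Cthrc1 and Ift27 for Tac1. Each is among the highest 3 of 11388 values.

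Neighbouring regions show the setting of the members. Ppp1r1b lies between Neurod2, a cortical neuron regulator 18.2 kb away with 60.5 per kb in postnatal saccharin samples, and Stard3, 8.54 kb away with 49.5 per kb. At Neurod2 the log2 difference was -0.12 after postnatal-only and -0.31 after pre- and postnatal exposure, and at Stard3 it was -0.37 and 0.16. The nearest named region to Drd1a was Sfxn1, 15.2 kb away at 72.0 per kb, with differences of -0.33 and -0.0020. Gpr6 had Wasf1 185.4 kb away at 152 per kb and Adora2a had Specc1l 103.7 kb away at 109.8 per kb. The nearest named region to Rgs9 was Gna13, which encodes a G protein subunit, 63.0 kb away at 130.5 per kb, and that to Tac1 was Asns, 136.7 kb away at 67.6 per kb. In postnatal saccharin means nearest named neighbours on these sides carried more signal per kb than the member except at Ppp1r1b. There Neurod2, by a narrow margin, and Stard3 lay lower than Ppp1r1b at 61.4 per kb. In pre- and postnatal saccharin means Neurod2 at 33.6 lay above Ppp1r1b at 32.0, and Stard3 at 27.9 lay below it. None of these neighbours passed the threshold.

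Relatives of the members by family carried a median of 43.5 per kb in postnatal saccharin samples. Of 22 listed, 12 had a region, and 0 were called in either exposure. After postnatal-only exposure 4 were higher and 8 lower in nicotine samples (median -0.04), and after pre- and postnatal exposure 6 were higher and 6 lower (median -0.02), beside medians of -0.0036 and 0.0027 over all regions. Among the receptors, Adora1, which lowers cAMP, had 45.3 per kb, Gpr12 had 41.6, Drd4 33.5, Drd5 28.7, and the tachykinin receptors Tacr1 and Tacr3 had 10.2 and 9.14, close to Tac1. Drd4 differed by -0.42 ± 0.32 and 0.15 ± 0.48, Tacr3 by -0.62 ± 0.54 and -0.10 ± 0.50 and Drd5 by 0.07 ± 0.27 and -0.25 ± 0.50, postnatal-only and then pre- and postnatal on the log2 scale (SE).

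The relatives of Rgs9 stood higher than Rgs9 itself. Rgs7 had 129.5 per kb, Rgs7bp, a membrane anchor of the family, 72.6, Rgs6 66.7, Gnb5, the family's obligate G protein beta partner, 66.4, and Rgs9bp 41.5, against 17.7 at Rgs9. After postnatal-only exposure Rgs7 measured 295 ± 8.44 under nicotine and 278 ± 28.3 under saccharin (SD, n = 2 each), differing by 0.09 ± 0.11 on the log2 scale. The differences of the other 4 lay between -0.14 and -0.03 there and between -0.32 and 0.10 after pre- and postnatal exposure. Ppp1r1a, the phosphatase inhibitor most like DARPP-32, had 54.4 per kb. After pre- and postnatal exposure it measured 74.5 ± 17.5 under nicotine and 52.5 ± 3.79 under saccharin (SD, n = 3 each), and the log2 difference of 0.47 ± 0.23 did not pass (limma adjusted p = 0.987).

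Other genes of medium spiny neurons, 16 of 33 with a region, carried a median of 60.4 per kb, above 5 of the 6 members. None was called in either exposure. After postnatal-only exposure 9 were higher and 7 lower in nicotine samples (median 0.05), and after pre- and postnatal exposure 2 were higher and 14 lower (median -0.07). After quantile normalization the counts were 8 higher and 8 lower, and 3 higher and 13 lower. With single pre- and postnatal libraries left out, 10 to 13 of the 16 were lower. The summed signal of the 16 was 929 to 1039 in pre- and postnatal nicotine samples, against 1041 to 1057 in saccharin samples. The highest nicotine sum, 1039, thus lay close to the lowest saccharin sum, 1041. Over all regions 49.5% were lower in pre- and postnatal nicotine samples, and in 8.95% the treatments did not overlap. No direction is read from these counts and sums. The summed signal of the 6 members overlapped there, at 125.7 to 144.1 in nicotine and 138.4 to 156.4 in saccharin samples.

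Among their signalling genes, Gnal, the G protein that couples the dopamine and adenosine receptors to adenylyl cyclase in striatum, had 99.9 per kb. Strn had 92.6, the striatal-enriched phosphatase Ptpn5 82.6, the phosphodiesterase Pde1b 45.3, Syndig1l 37.9 and the muscarinic receptor Chrm4 36.3. Gnal measured 185 ± 7.56 under nicotine and 163 ± 7.32 under saccharin after postnatal-only exposure (SD, n = 2 each), and 105 ± 16.2 under nicotine and 109 ± 6.15 under saccharin after pre- and postnatal exposure (SD, n = 3 each). Its log2 differences were 0.18 ± 0.12 and -0.07 ± 0.18 (SE), postnatal-only and then pre- and postnatal. In the same order Ptpn5 differed by 0.10 ± 0.12 and -0.05 ± 0.21, and Syndig1l by 0.26 ± 0.22 and -0.23 ± 0.31. Pde1b and Chrm4 were negative in both, at -0.07 and -0.33 and at -0.27 and -0.07, and Strn lay at 0.0048 and -0.0021.

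Among the transcription factors, Foxp1 had 92.8 per kb, Bcl11b 85.6, Zfp503 85.1, Foxp2 75.4, Meis2 44.6, Ebf1 36.3, Sp9 33.9, Six3 18.3 and Rxrg 13.2. Several of these also serve cortical neurons: Bcl11b and Foxp2 mark deep layers. Bcl11b and Zfp503 were the 2 genes with a positive difference after pre- and postnatal exposure, at 0.25 ± 0.25 and 0.13 ± 0.21. Six3 had the most negative one, -1.21 ± 0.77, with 8.77 ± 12.4 in nicotine and 12.3 ± 5.67 in saccharin samples (SD, n = 3 each), followed by Sp9 at -0.35 ± 0.27 and Foxp2 at -0.29 ± 0.21. After postnatal-only exposure Six3 stood at 0.30 ± 0.37, Ebf1 at 0.29 ± 0.26, Meis2 at -0.30 ± 0.28 and Rxrg at -0.73 ± 0.53. The remaining values of Foxp1, Ebf1, Meis2 and Rxrg after pre- and postnatal exposure lay between -0.25 and -0.03.

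**Figure D5:**
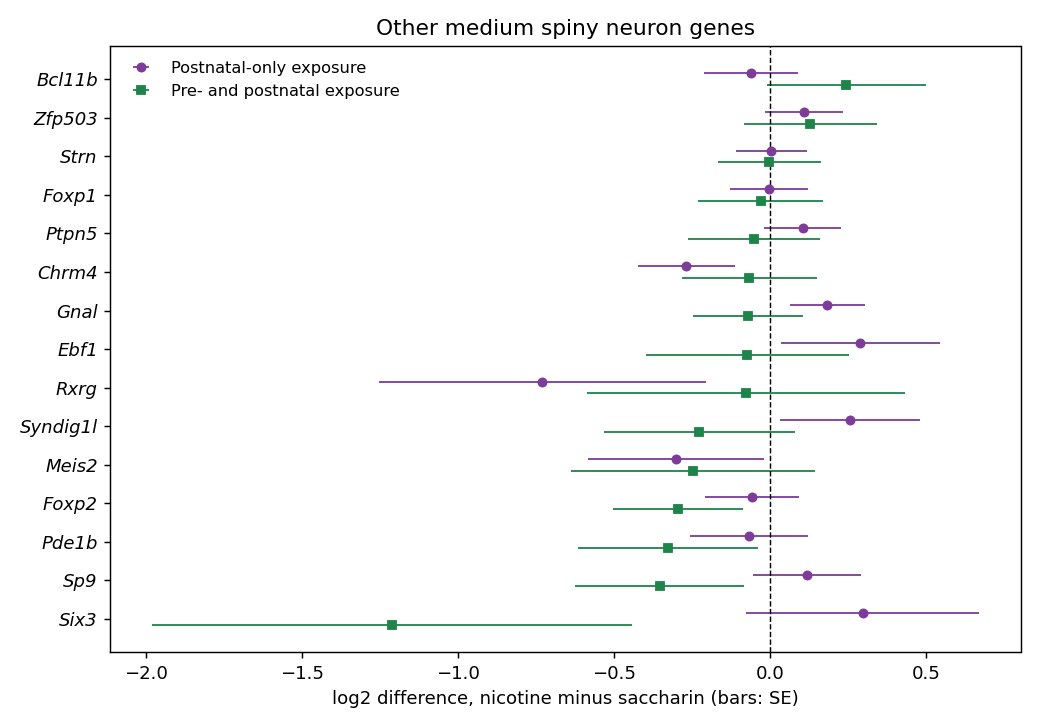
Log2 difference, nicotine minus saccharin, of 15 of the 16 other medium spiny neuron genes with a region after postnatal-only (circles) and pre- and postnatal exposure (squares), with standard errors as bars, ordered by the pre- and postnatal value. The values scatter on both sides of 0 after postnatal-only exposure, while 13 of the 15 drawn lie below 0 after pre- and postnatal exposure, and none passed the threshold. Over all regions 49.5% lie below 0 after pre- and postnatal exposure.

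The signalling partners of the members carried strong marks. Of 30 genes of cAMP and protein kinase A signalling 27 had a region (median 94.4 per kb in postnatal saccharin samples), and of 18 targets and regulators of DARPP-32 17 had one (median 108.6 per kb). None was called in either exposure. For cAMP signalling 16 genes were higher and 11 lower in nicotine samples after postnatal-only exposure (median 0.07) and 15 higher and 12 lower after pre- and postnatal exposure (median 0.06). After quantile normalization these medians were 0.0098 (16 higher, 11 lower) and 0.015 (14 higher, 13 lower). For the DARPP-32 list the counts were 12 and 5 (median 0.07), and 10 and 7 (median 0.02). After quantile normalization they were 10 higher and 7 lower (median 0.0082) after postnatal-only exposure, and 6 higher and 11 lower (median -0.037) after pre- and postnatal exposure. No direction is read from these small medians. An unadjusted p under 0.05 was reached by Gnai3, an inhibitory G protein subunit, after pre- and postnatal exposure, at 48.7 ± 10.6 in nicotine and 69.9 ± 4.29 in saccharin samples (log2 difference -0.53 ± 0.23), and by Ppp1r9a, a phosphatase 1 scaffold, after postnatal-only exposure, at 168 ± 10.9 in nicotine and 133 ± 2.24 in saccharin samples (0.33 ± 0.13). Gnai3 was 1 of the 27 measured genes of its list and Ppp1r9a 1 of 17. Over all regions such a p was reached by 3.59% after pre- and postnatal and 1.89% after postnatal-only exposure. Crtc1, a CREB coactivator, differed by 0.41 ± 0.22 and Ppp1ca, a catalytic subunit of protein phosphatase 1, by 0.32 ± 0.20, both after pre- and postnatal exposure. Of 9 genes of dopamine synthesis, transport and breakdown, 2 had a region and 0 were called. Gch1, which encodes the first enzyme in making the cofactor of dopamine synthesis, had 73.2 per kb and differed by 0.0076 ± 0.17 after postnatal-only and -0.03 ± 0.25 after pre- and postnatal exposure.

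Markers of other cells are given beside the members' pre- and postnatal values. The 5 measured interneuron markers of 10 were all lower in pre- and postnatal nicotine samples (median -0.42), with a summed signal of 61.7 to 104.6 in nicotine and 72.1 to 124.5 in saccharin samples, and 4 of 5 were lower after quantile normalization. With 1 library left out the median ranged from -0.64 without saccharin replicate 2 to -0.17 without saccharin replicate 1, it was -0.23 without nicotine replicate 4, and 3 of 5 were lower without nicotine replicate 4 or without saccharin replicate 3. Dlx1, a regulator of GABAergic neurons, differed by -0.49 ± 0.40 there, and Gad2, which makes GABA, by 0.56 ± 0.43 after postnatal-only exposure. The 5 interneuron markers were mixed after postnatal-only exposure, with 3 higher and 2 lower in nicotine samples (median 0.04). The 3 thalamic markers were lower in both exposures, with differences from -0.73 to -0.02 after postnatal-only exposure. Their summed signal after pre- and postnatal exposure was 80.4 to 112.0 in nicotine and 120.1 to 143.4 in saccharin samples. After postnatal-only exposure it was 174 to 190 against 202 to 213. Among all single regions, the treatments did not overlap in 8.95% after pre- and postnatal and 29.1% after postnatal-only exposure. Without postnatal nicotine libraries 1 and 2, or without postnatal saccharin libraries 3 and 4, 2 of the 3 were lower. Of the thalamic markers Gbx2 differed by -0.73 ± 0.31 after postnatal-only and Tcf7l2 by -0.58 ± 0.27 after pre- and postnatal exposure. The 9 projection neuron markers overlapped, at 756 to 896 in nicotine and 802 to 819 in saccharin samples after pre- and postnatal exposure. Of these 9, 3 were higher and 6 lower in nicotine samples after postnatal-only exposure (median -0.06). The counts were 4 higher and 5 lower after pre- and postnatal exposure (median -0.01). Fezf2 differed by -0.43 ± 0.28 after postnatal-only and by 0.06 ± 0.33 after pre- and postnatal exposure. Camk2a differed by -0.06 ± 0.24 after postnatal-only and by 0.42 ± 0.20 after pre- and postnatal exposure.

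The remaining marker lists held few regions. Oligodendrocyte markers, 6 of 8 measured, had 4 higher and 2 lower after pre- and postnatal exposure (median 0.09), with Nkx6-2 and Mbp each at 0.29. Without nicotine replicate 1, 3 were higher and 3 lower there (median -0.018). They were also 3 higher and 3 lower after postnatal-only exposure, with Nkx6-2 at 0.26 and Mbp at -0.23. Astrocyte markers Gli3 and Fgfr3 differed by -0.03 and 0.32 after pre- and postnatal exposure, and by 0.11 and -0.14 after postnatal-only exposure. Of 3 measured endothelial markers 2 were higher and 1 lower in nicotine samples in each exposure. Vwf differed by 0.80 ± 0.59 after postnatal-only and 0.23 ± 0.44 after pre- and postnatal exposure, Sox17 by 0.23 and 0.36, and Cldn5 by -0.17 and -0.065. The endothelial median was 0.23 in each exposure, but -0.024 after postnatal-only exposure without nicotine libraries 3 and 4, and -0.034 and -0.083 after pre- and postnatal exposure without nicotine replicate 4 and without saccharin replicate 2. Irf8 of microglia, at 4.13 per kb in postnatal saccharin samples, differed by 0.57 ± 0.67 after postnatal-only and -0.92 ± 0.72 after pre- and postnatal exposure, and Kl by 0.04 and -0.43. Myod1 measured 3.95 ± 1.90 in nicotine and 13.2 ± 3.47 in saccharin samples after pre- and postnatal exposure (SD, n = 3 each), differing by -1.57 ± 0.61 on the log2 scale. Its difference had the opposite sign after postnatal-only exposure, 0.37 ± 0.46, with means of 14.7 in nicotine and 11.1 in saccharin samples. An unadjusted p under 0.05 was reached by Gbx2 after postnatal-only exposure and by Camk2a, Tcf7l2 and Myod1 after pre- and postnatal exposure. Over all regions 1.89% reached it after postnatal-only and 3.59% after pre- and postnatal exposure, and nothing particular to the markers is read from these. No marker was called, and their part in the members' values was not tested.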

How the data were processed

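H3K4me3 ChIP-seq signal was analysed in 14 libraries of cerebral cortex. Per the labels' protocols, 50 mg of tissue was fixed in 1% formaldehyde, 18 cycles of PCR were run, fragments were selected at 170 to 300 bp, and a Genome Analyzer read 36 cycles. The unit deposited by the authors is signal, that is, reads per region adjusted separately in each table and no longer whole. The tool edgeR and build mm9 are named per the submitters' processing notes. Aligner, peak caller and filters: not given in the sources used here. Of 19203 rows, 14881 had values. Regions were 611 to 4705 bp wide.

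From these values log2(value + 1) was computed, regions with at least 1 in as many samples as the smaller group were kept, and each exposure was fitted with limma 3.58.1 (R 4.3.3), tested on simulated data. Adding the pseudocount understates changes at low signal. Signal per kb is signal over region width. The region of highest mean stood for a list gene. The members and lists were chosen with earlier results of these data known. Named were all members, all measured family relatives and other medium spiny neuron genes, the 2 genes of each other list with the largest absolute difference, and the 3 regions most like each member in pattern. Values of 2 list genes are not reported here, and the list counts include them. Slc17a7, Emx1, Cux2 and neighbouring regions were named besides, for their role or place. Alternatives changed the pseudocount, filter, scaling, trend, block, class of samples and samples left out. The 11224 transcript matches and the promoters come from RefSeq (GRCm38.p6).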

Additional observations from a re-analysis of the deposited data

How the results depend on the processing

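Over 170 refits of the members' 12 differences, 151 kept their direction, 19 changed sign and 0 were called (lowest adjusted p 0.628). The filter and trend settings cannot move a difference, nor can the block and class terms after postnatal-only exposure. The 151 thus include refits whose direction was fixed in advance. Direction changed for Adora2a (0.021) after postnatal-only and for Rgs9 (0.15) after pre- and postnatal exposure under quantile normalization, and for Tac1 (-0.049) with all 8 postnatal libraries kept apart. Leaving out 1 sample, the postnatal-only differences ranged from -0.039 to 0.33 at Ppp1r1b, -0.34 to 0.0093 at Drd1a, -0.14 to 0.41 at Gpr6, -0.22 to 0.081 at Adora2a, -0.27 to 0.33 at Rgs9 and -0.41 to 0.48 at Tac1. The pre- and postnatal ones ranged from -0.31 to -0.019, -0.15 to 0.058, -0.071 to 0.26, -0.83 to -0.053, -0.20 to 0.10 and -1.41 to -0.41 in that gene order. A lone sample left in a group is assumed to vary like the others. The filter of at least 20 removed Tac1 after postnatal-only, and Tac1, Adora2a and Rgs9 after pre- and postnatal exposure, so it gave no value there. The count of regions called, 0 in each exposure, was 9 (8 higher, 1 lower) after postnatal-only exposure with the class of samples as a term, and 0 to 31 with 1 sample left out (31, all higher, without nicotine libraries 3 and 4, and 7, all lower, without nicotine libraries 1 and 2). After pre- and postnatal exposure it was 1 (lower, at a region with no gene) without the trend and 0 to 17 with 1 library left out (17 without nicotine replicate 1). The cause was not tested, and 0 members were among these calls. Deviations of same-numbered samples correlated at -0.48 after postnatal-only and at -0.10 in both pairs after pre- and postnatal exposure. With 2 samples per treatment the postnatal-only deviations mirror each other, so the crossed pairs gave 0.48 by construction. Whether replicate numbers pair the samples cannot be told from these values. With the replicate block 1 region (higher, no gene) was called after postnatal-only and 0 after pre- and postnatal exposure, and the crossed pairing is the fit with the class term. Scalings moved the median of all regions by less than 0.1. At Tac1 after pre- and postnatal exposure the difference of -0.93 was -0.35 under quantile normalization and -1.86 with the replicate block, the extremes over its alternatives. Of the 6 members Tac1 had the widest interval in both exposures.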
